A study of Mus musculus with 14 samples.

Results

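The data described here are the transcript levels of 10 genes grouped as hormone-sensing luminal genes of the mouse mammary gland. The group name is a label and does not assign the levels to those cells. The 10 genes were chosen by name and read from 20515 genes in lactating tissue. They were *Esr1* and *Pgr* (estrogen and progesterone receptors), *Foxa1* (a transcription factor that opens chromatin for the estrogen receptor), the secreted signals *Areg*, *Wnt4*, *Tnfsf11* and *Calca*, the receptor *Tnfrsf11a*, and the surface proteins *Prom1* and *Ly6a*. The study joined the *Wap* super-enhancer, the *Wap* promoter and the first *Wap* exon to the *Tbrg4* gene by a CRISPR-Cas9 deletion on the C57BL/6 background. Total RNA was sequenced from whole mammary tissue on day 10 of lactation (L10) of wt/Wap-Tbrg4 mice, which are heterozygous, with 1 wild-type allele and 1 fusion allele. This group had 2 replicates, named mouse 1 and mouse 2 here. Wild-type RNA-seq was not analysed here, so none of the levels below is an effect of the fusion allele. The age of the mice was not given in the sources used here.

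Luminal cells of the mammary gland are of at least a pair of kinds: hormone-sensing cells that carry the estrogen and progesterone receptors, and alveolar cells that make milk. Hormone-sensing cells relay ovarian hormones to their neighbours through secreted signals, with amphiregulin (*Areg*) acting on the EGF receptor, *Wnt4* on Frizzled receptors and RANK ligand (*Tnfsf11*) on RANK (*Tnfrsf11a*). These signals drive ductal growth and the alveolar expansion of pregnancy, and progesterone is low in lactation.

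Levels are exon FPKM as deposited, mapped fragments scaled for exon length and by a factor for each mouse, listed to 1 decimal. At L10, 3 of the 10 genes were at a mean of 1 FPKM or more, a level called expressed here, against 48.0% of all genes. The 3 were *Tnfrsf11a*, *Ly6a* and *Esr1*. Another 4 of the 10, *Areg*, *Calca*, *Prom1* and *Tnfsf11*, were listed at 0 in both mice, against 30.2% of all genes. The remaining 3, *Foxa1*, *Pgr* and *Wnt4*, lay between 0 and 0.4 FPKM in every mouse. The median of the 10 means was 0.1 FPKM, against 0.75 over all genes.

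**Figure D1:**
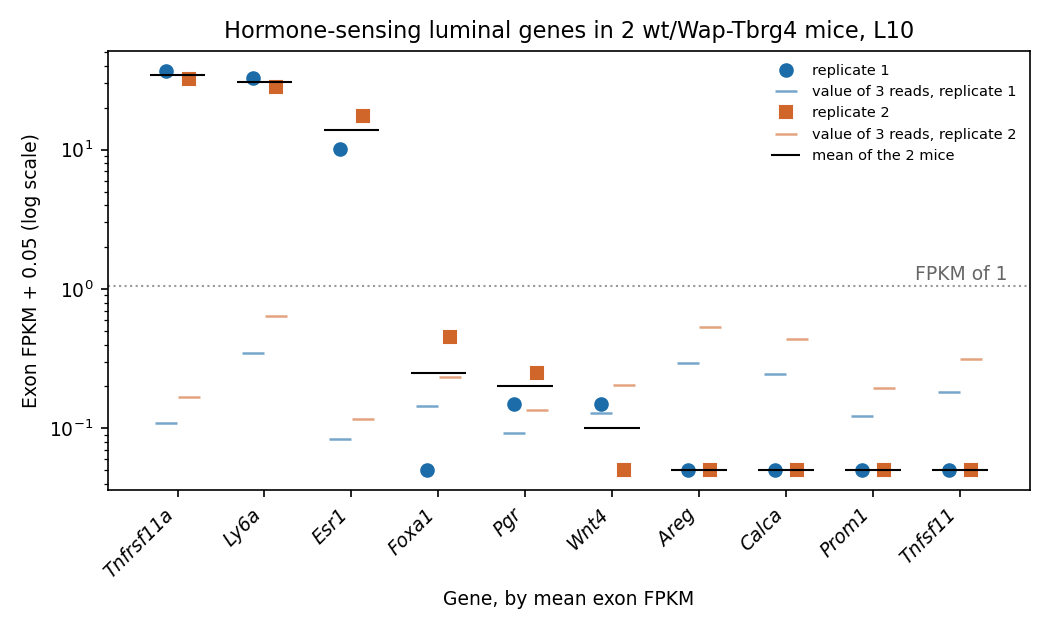
Exon FPKM of the 10 genes in each of the 2 wt/Wap-Tbrg4 mice at L10, on a log axis, with dashes at the value that 3 reads would have. *Tnfrsf11a*, *Ly6a* and *Esr1* lie between 10.1 and 36.7 FPKM in both mice, and no other value is above 0.4.

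Depth was read from the values themselves, because low values fall on whole multiples of what 1 read is worth. One read on 1 kb of exon was worth 0.0995 FPKM in mouse 1 and 0.197 FPKM in mouse 2. Summed exon FPKM then amounted to about 12100000 reads in mouse 1 and 11300000 in mouse 2. The weight of 1 read was 1.98 times as high in mouse 2, so the scaling factors did not follow these totals. The paper names DESeq2 as the package behind the FPKM values, but how the factors were set in it was not given. The 10 highest genes held 79.5% and 90.6% of summed FPKM. Outside them, about 4910000 reads remained in mouse 1 and 2470000 in mouse 2, so low values rest on fewer reads in mouse 2. Intervals and 3-read limits below use these estimated reads, which are approximate. They take the scaling factors as exact and cover counting error only.

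Among the steroid receptors and their cofactor, *Esr1* stood alone. Its exon level was 10.1 FPKM in mouse 1 and 17.3 in mouse 2, a mean of 13.7 ± 5.09 (SD, n = 2), at percentile 88.9 of all genes. The 95% exact Poisson intervals, 9.45 to 10.8 and 16.1 to 18.6, did not overlap, so the mice differed by more than the estimated counting error. *Esr1* spans chr10:4611989-5005633 on the plus strand of GRCm38.p6, with 8765 bp of collapsed exons and 384880 bp of introns.

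*Pgr*, a target of the estrogen receptor, was at 0.1 FPKM in mouse 1 and 0.2 in mouse 2. These values stand for about 7 reads in each mouse over 6889 bp of exon (chr9:8899833-8968611). Rounding alone allows 4 to 10 reads in mouse 1 and 6 to 8 in mouse 2. Taken at 7 reads, the counting intervals were 0.0406 to 0.208 FPKM and 0.0805 to 0.412 FPKM. As listed, *Pgr* was at 0.990% of *Esr1* in mouse 1 and 1.16% in mouse 2, and rounding to 1 decimal alone allows 0.493% to 1.49% and 0.865% to 1.45%. *Foxa1* (chr12:57540628-57546111) was listed at 0 in mouse 1 and at 0.4 FPKM in mouse 2, about 6 reads. With 0 reads taken for mouse 1, the counting intervals for *Foxa1* were 0 to 0.115 FPKM and 0.136 to 0.809 FPKM, which did not overlap. A listed 0 in mouse 1 also allows 1 read, for which no interval was computed. In mouse 1, 3 reads would have been 0.0938 FPKM.

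Companions of the steroid receptors, 13 other genes, were mostly present, with 9 of 13 expressed and a median of 5.90 FPKM. *Gata3*, a transcription factor of luminal cells, was at 11 FPKM in both mice. *Prlr*, the prolactin receptor, was at 20.0 and 25.9 FPKM, and *Pgrmc1*, a membrane heme-binding protein named for progesterone binding, was the highest at 21.6 and 25.9. The coactivators *Ncoa1*, *Ncoa2* and *Ncoa3* and the corepressor *Nrip1* lay between 5.6 and 15.1 FPKM. *Greb1*, an estrogen target, and *Foxa2* were listed at 0 in both mice. *Esr2*, the other estrogen receptor, was at 0.8 and 0.7 FPKM, and *Tbx3* was at 0.8 and 0.9. On the scale of log2(FPKM + 1), on which all 2-fold statements here were made, none of the 9 expressed companions was over 2-fold apart between the mice. *Cited1*, a coactivator used by the estrogen receptor, was at 0.7 and 1.7 FPKM, a log2 ratio of 0.67 on that scale and 1.57 with a trend in GC content removed.

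The secreted signals were at or near 0. *Areg*, *Tnfsf11* and *Calca* were listed at 0 in both mice. A count of 3 reads would have been 0.246 and 0.486 FPKM for *Areg* in mice 1 and 2, 0.134 and 0.264 FPKM for *Tnfsf11*, and 0.197 and 0.391 FPKM for *Calca*, the gene of calcitonin and CGRP. *Wnt4* was at 0.1 FPKM in mouse 1, about 4 reads, with 2 to 5 allowed by rounding. It was listed at 0 in mouse 2, where 3 reads would have been 0.155 FPKM. A listed 0 can also be a failed estimate in these files. Genes that most cells use were near 0 too, with *Gapdh* at 0.1 and 0.3 FPKM and *Ppia* at 0.4 and 0.0. Introns of *Gapdh* were at 0.7 and 0.9 FPKM and those of *Ppia* at 1.5 and 2.4, while introns of the 3 ligands were listed at 0. Of 50-base exon stretches, 0% of *Areg* and *Tnfsf11* and 0.715% of *Calca* occur in other genes. Whether the ligand values are failed estimates was not tested. The levels of the 3 ligands listed at 0 are therefore given as listed and not as absence.

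The promoters of *Areg* and *Tnfsf11*, 2 of the ligands listed at 0, are shown because their windows held a match to the letters searched. Sequences are the gene strand of RefSeq (GRCm38.p6), 100 bases ending just before the annotated start, at chr5:91139499-91139598 for *Areg* (plus strand) and chr14:78308044-78308143 for *Tnfsf11* (minus strand). Capitals mark matches on either strand to the CRE, TGACGTCA, and to the TATA letters TATAAA.
Areg: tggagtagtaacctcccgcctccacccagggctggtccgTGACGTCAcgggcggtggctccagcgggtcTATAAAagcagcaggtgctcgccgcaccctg
Tnfsf11: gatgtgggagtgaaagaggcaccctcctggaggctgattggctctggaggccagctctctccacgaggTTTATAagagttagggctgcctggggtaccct
The *Areg* window holds a CRE 61 to 54 bases before the start and TATAAA 31 to 26 bases before it. *Tnfsf11* holds the TATA letters on the other strand, 32 to 27 bases before its start. Of all 32851 promoter windows in the table, searched over the 250 bases before each start, 1.55% hold a CRE and 12.4% hold TATAAA. A match is a description of letters and not a bound site.

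*Tnfrsf11a*, which encodes RANK, was the highest of the 10 genes. It was at 36.7 FPKM in mouse 1 and 31.8 in mouse 2, a mean of 34.2 ± 3.46 (SD, n = 2), at percentile 96.1 of all genes. Its ligand was thus listed at 0 in the tissue in which the receptor stood near the top of the range. The soluble decoy receptor for the same ligand, *Tnfrsf11b* (osteoprotegerin), was at 0.8 and 1.3 FPKM. *Traf6*, the adaptor that carries the RANK signal inward, was at 13.1 and 17.2 FPKM. *Tnfrsf11a* lies at chr1:105780723-105847981 on the plus strand, with 5022 bp of exon and 62237 bp of intron.

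Receptors and partners of the ligands were also measured. Of 22 such genes listed, 18 were found, and the Frizzled receptors *Fzd1*, *Fzd2*, *Fzd7* and *Fzd8* had no usable entry. Among the 18, 13 were expressed and 3 were listed at 0, with a median of 4.88 FPKM. The Frizzled receptors found were *Fzd5*, at 1.8 and 1.6 FPKM, and *Fzd6*, at 5.9 and 6.8. *Egfr*, through which amphiregulin acts, was at 4.6 and 6.2 FPKM, and *Adam17*, the protease that releases amphiregulin, was at 7.5 and 6.0. *Lgr4*, an R-spondin receptor of the WNT pathway, was the highest of the 18 at 43.7 and 75.0 FPKM, whereas its relative *Lgr5* was listed at 0. The WNT coreceptor *Lrp6* was at 21.3 and 21.2 FPKM. *Lrp5* was at 12.3 and 5.3 FPKM, and of the 13 expressed it was the 1 gene over 2-fold apart between the mice, with a log2 ratio of -1.08 that was -0.43 once the GC trend was removed. *Rspo1* was at 0.2 and 0.1 FPKM. For *Calca*, the calcitonin receptor *Calcr* was listed at 0, while the CGRP receptor pair *Calcrl* and *Ramp1* was at 3.8 and 4.9 FPKM and at 11.3 and 13.4 FPKM.

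Genes that textbooks name as readouts of these signals were split. Of 7, 5 were expressed and *Lef1* was listed at 0. *Axin2*, a common readout of WNT signalling, was at 0.3 FPKM in both mice. *Elf5*, the alveolar transcription factor that lies downstream of prolactin and RANK, was at 185.8 and 204.8 FPKM. *Id2* was at 28.6 and 38.5 FPKM. The cell cycle genes *Ccnd1*, *Mki67* and *Cdkn1b* were at 8.7 and 8.1 FPKM, at 24.4 and 24.2 FPKM, and at 8.4 and 8.6 FPKM.

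**Figure D2:**
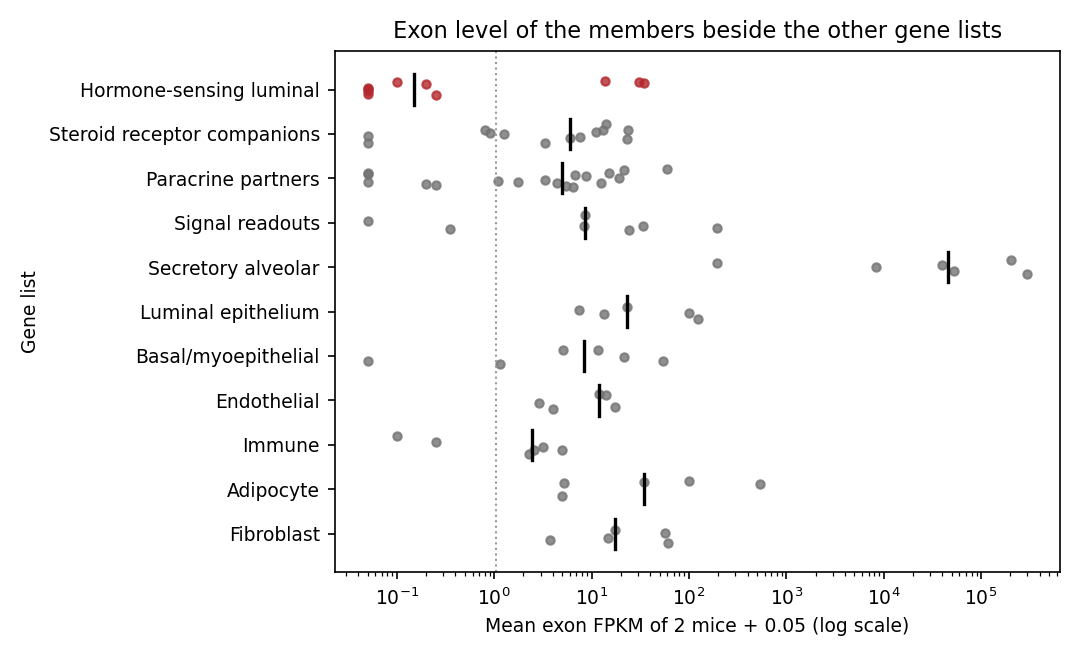
Mean exon FPKM over 2 mice for the 10 genes and for the gene lists, on a log axis; each point is a gene, bars are list medians and the dotted line is 1 FPKM. The 10 genes have a median of 0.1 FPKM, below the 5.90 of the receptor companions and the 4.88 of the paracrine partners.

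The surface proteins differed from each other. *Ly6a*, which encodes Sca-1, was at 32.5 FPKM in mouse 1 and 28.2 in mouse 2, a mean of 30.4 ± 3.04 (SD, n = 2), at percentile 95.5. *Prom1*, which encodes CD133 and marks the hormone-sensing cells in mouse sorts, was listed at 0 in both mice, where 3 reads would have been 0.0727 and 0.144 FPKM. It overlaps a gene on the opposite strand, *Gm16401*, and whether the counting used strand was not given in the sources used here. Of the 50-base stretches of *Ly6a* exons, 19.0% also occur in other genes, among them *Ly6c1* at 6.3 and 11.2 FPKM and *Ly6c2* at 2.5 and 2.4. How such reads were counted was not given in the sources used here, and their part in the *Ly6a* level was not tested. *Ly6a* is also used by endothelial and stromal cells. Endothelial markers, 5 of 5 expressed, summed to 54.5 and 45.4 FPKM. Fibroblast markers, 5 of 5 expressed, summed to 152.3 and 155.6 FPKM. The part of either cell type in the *Ly6a* level was not tested.

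In the order of levels, *Tnfrsf11a* and *Ly6a* were neighbours whose values overlapped. *Ly6a* and *Esr1* did not overlap, nor did *Esr1* and *Foxa1*, and the order of the top 3 was the same in each mouse. From *Foxa1* downward all neighbours overlapped.

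Whole tissue mixes cell types, and fewer cells of a type cannot be told apart from less RNA per cell. Milk genes dominated, with *Csn2* at 108555 and 481937 FPKM and *Wap* at 172934.6 and 234774 FPKM. Epithelial, basal, adipocyte and immune markers were present too. *Epcam* was at 134.0 and 112.0 FPKM, 5 of 6 basal markers were expressed (*Acta2* was listed at 0), adipocyte markers summed to 634.1 and 719.5 FPKM and immune markers to 14.9 and 11.1. Against *Epcam*, *Tnfrsf11a* was at 27.4% and 28.4%, a mean of 27.9% ± 0.710 (SD, n = 2). *Ly6a* was at 24.3% and 25.2%. *Esr1* was at 7.54% and 15.4%. These shares depend on the marker: against *Krt18*, a denominator chosen after the values were seen, *Tnfrsf11a* was at 25.3% and 55.2%, *Ly6a* at 22.4% and 49.0%, and *Esr1* at 6.97% and 30.0%.

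Reads in introns come largely from transcripts not yet spliced. All 3 expressed genes had intron FPKM above 0 in each mouse and the other 7 were listed at 0, so 3 of 10 did, against 50.4% of all genes. *Esr1* was at 0.6 intron FPKM in both mice. This rested on about 2321 and 1172 reads, and values listed to 1 decimal cannot show a smaller difference. *Tnfrsf11a* was at 3.2 and 1.6 intron FPKM, intervals 3.06 to 3.34 and 1.46 to 1.74, which did not overlap. *Ly6a* was at 0.5 and 0.2, from about 11 and 2 reads, and those intervals overlapped.

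Exon FPKM divided by intron FPKM was 16.8 and 28.8 for *Esr1*, 11.5 and 19.9 for *Tnfrsf11a*, and 65.0 and 141 for *Ly6a*. Rounding of the listed values alone allows 15.5 to 18.5 and 26.5 to 31.5 for *Esr1*, and 59.0 to 72.3 and 113 to 188 for *Ly6a*. Ranked by intron over exon among 9532 genes, *Tnfrsf11a* lay at percentile 53.6, *Esr1* at 32.0 and *Ly6a* at 3.96. The 3 expressed genes therefore ran from the middle to the low end of intron signal per exon signal, and *Ly6a*, whose introns are only 2153 bp in all, had the least.

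**Figure D3:**
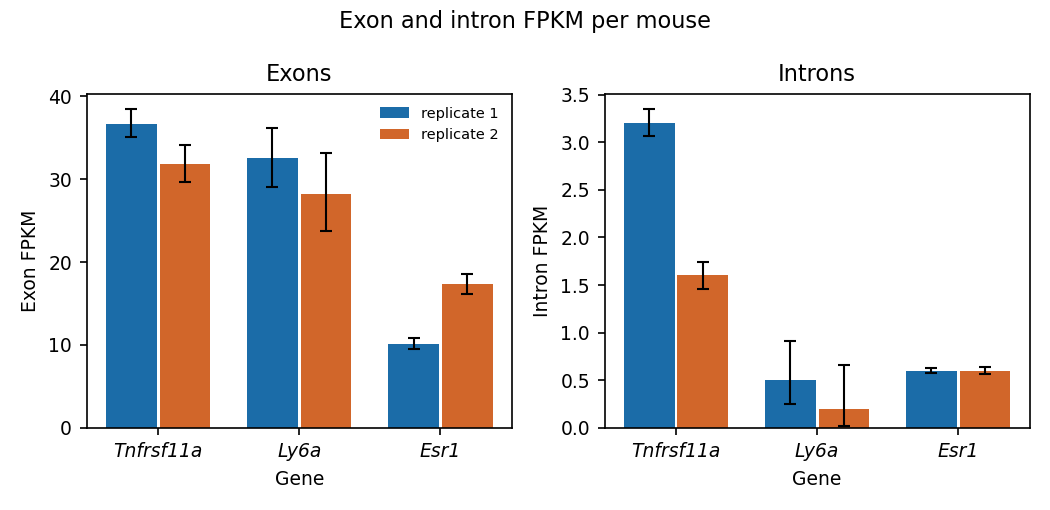
Exon and intron FPKM of *Tnfrsf11a*, *Ly6a* and *Esr1* in each of the 2 mice, as bars on linear axes. Error bars are 95% exact Poisson intervals from estimated reads (counting error only, without the rounding to 1 decimal). *Esr1* is listed at 0.6 intron FPKM in both mice, with exon levels of 10.1 and 17.3.

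Mouse 2 was compared with mouse 1 as log2 of the ratio of FPKM + 1, which understates differences of low genes. *Esr1* was at 0.72, *Tnfrsf11a* at -0.20 and *Ly6a* at -0.20, and none of the 3 passed 2-fold, against 5.90% of all expressed genes. The median of expressed genes was -0.08. Removing a trend with exon GC content across genes left 186 of 9725 genes over 2-fold apart, against 581 of 9845 before. The first count covers only expressed genes with a GC value and the second all expressed genes. *Esr1* exons hold 43.7% GC against a median of 50.2%. With the GC trend removed, *Esr1* was at 0.50, *Tnfrsf11a* at -0.23 and *Ly6a* at -0.21. Rescaling each mouse to the same summed FPKM moved the median of expressed genes by -0.83, put *Esr1* at -0.27 and put *Tnfrsf11a* and *Ly6a* at -1.23 and -1.22, past 2-fold, as it did 42.6% of expressed genes. The direction between the mice for *Esr1* was the same with pseudocounts of 0.1 and 0.5, after centring and after the GC step, and flipped under this rescaling, in which the milk genes set the sum. Among luminal markers, *Krt8*, *Krt18* and *Krt19* of the 5 measured were more than 2-fold lower in mouse 2, and the median log2 ratio of the 5 was -1.05 (-0.53 with the GC trend removed, when none of the 3 passed 2-fold). Their part in the *Esr1* value was not tested. With 1 genotype and 2 mice there was no contrast to test, and no p-value is given.

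**Figure D4:**
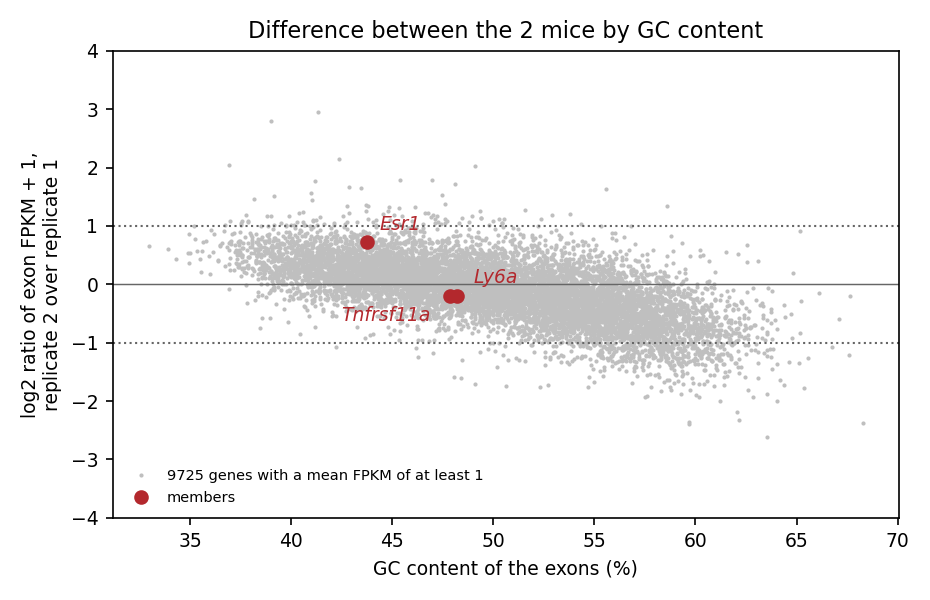
Difference between the mice, log2 of mouse 2 over mouse 1 (FPKM + 1), against exon GC content in percent for 9725 expressed genes, with the 3 expressed members marked and dotted lines at 2-fold; 1 gene lies outside the drawn range. *Esr1* lies at 43.7% GC and 0.72, and *Tnfrsf11a* and *Ly6a* at -0.20.

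Promoters of *Esr1* and of *Tnfrsf11a* are shown to set these expressed genes beside the ligands listed at 0. RefSeq gave windows for 9 of the 10 genes, 11 windows in all, and each stretch is 100 bases of the gene strand (GRCm38.p6, plus strand for both). They lie at chr10:4709958-4710057 for a downstream *Esr1* start and at chr1:105780573-105780672 for *Tnfrsf11a*. Capitals mark the STAT5 letters TTCNNNGAA, the element through which prolactin acts on milk genes.
Esr1: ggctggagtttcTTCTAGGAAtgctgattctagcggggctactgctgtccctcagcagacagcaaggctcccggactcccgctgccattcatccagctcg
Tnfrsf11a: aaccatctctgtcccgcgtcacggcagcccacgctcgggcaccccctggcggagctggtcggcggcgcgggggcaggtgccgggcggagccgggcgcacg
The *Esr1* match lies 188 to 180 bases before that start and was the 1 STAT5 match in the 11 windows, while 7.02% of all windows hold one. The *Tnfrsf11a* stretch holds none of the motifs searched and is 79.0% GC. The estrogen response element, GGTCANNNTGACC, was in 0 of the 11 windows and in 0.0639% of all.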

How the data were processed

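Total RNA-seq values of 2 wt/Wap-Tbrg4 replicates at L10 were used. The authors aligned reads to mm10 with STAR and counted with HTSeq per the submitters' processing notes, with DESeq2 also named there and versions not given in the sources used here; the deposited FPKM values for exons and introns, rounded to 1 decimal, were taken as they stand. Use of strand and handling of multimapping reads were not given there either. The 10 genes and the gene lists were chosen with earlier results of these data known. Named by rule were the 10 members, direct partners of the ligands or receptors, and each list's highest and lowest gene; other companion, WNT, readout and marker genes were named after their values were seen. Rows without a usable symbol, 35 in all, were left out. RefSeq exons (GRCm38.p6, curated transcripts collapsed per gene) gave lengths and GC content for 20137 genes, 98.2%. Reads were estimated from the steps of low values, an approach chosen after seeing the data and checked on simulated data; exact Poisson intervals and 3-read limits cover counting error only. The GC trend was removed from log2 ratios, also checked on simulated data. Python 3.11.15, pandas 2.3.3, scipy 1.17.1 and statsmodels 0.14.6 were used. Replicates are labelled as such, so the SD (n = 2) measures the spread between these samples. Alternatives were other pseudocounts, filters, scalings, a GC correction and leaving out each mouse. ChIP-seq samples were not analysed here.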

Additional observations from a re-analysis of the deposited data

How the results depend on the processing

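For these results, 141 alternative values were computed. Of them, 129 stayed within the spread between the mice or within 1.5 times the reported count, and 12 did not. Leaving out a mouse cannot move a mean of 2 mice past their SD, and genes listed at 0 in both mice could not move either. Without the values that left out a mouse, 74 of 85 stayed and 11 did not, with genes listed at 0 still among the 85. The median exon level of the 10 genes, 0.1 FPKM, ran from 0.05 to 0.1 when either mouse was left out. With no filter on low values, the median log2 ratio of the genes was 0 in place of -0.20. Rescaling each mouse to a sum of 1000000, an alternative chosen after seeing the data for the ratios, gave a median log2 ratio of -1.22 and 2 genes over 2-fold apart in place of 0. *Esr1* then changed sign to -0.27. The same rescaling put mean levels at 30.4 for *Tnfrsf11a* and 26.9 for *Ly6a*, below the reported means by more than 1 SD. *Krt18* in place of *Epcam* as denominator, also chosen after seeing the data, raised the mean shares of *Tnfrsf11a*, *Ly6a* and *Esr1* to 40.3%, 35.7% and 18.5%. With 2 mice, leaving one out cannot show stability. No paired analysis was possible because only 1 group has replicates. Depth limits *Pgr*, *Foxa1* and *Wnt4*, which rest on about 7 reads or fewer in each mouse.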
